A study of Mus musculus with 24 samples.

Results

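Csn3, Adgra2, Rasgrp3, Tshz1, Dusp9 and Kcnip3 are 6 mouse genes that were chosen for large increases in P19 cells early or late after ATRA or BMS753. They are 6 of 19938 genes with a value on the arrays, and each was measured by 1 probe set. They lie on chromosomes 5 (Csn3), 8 (Adgra2), X (Dusp9), 2 (Kcnip3), 18 (Tshz1) and 17 (Rasgrp3). The choice used how far each array lay from the EtOH mean in log2 units, so their levels with ATRA and BMS753 against EtOH are given as a description without a test. P19 is an established mouse embryonal carcinoma line, here grown as a monolayer on gelatine-coated plates. All-trans retinoic acid (ATRA) and BMS753, an agonist of the retinoic acid receptor RARα, were given at 1 µM, while BMS641, which acts on RARβ, and BMS961, which acts on RARγ, were given at 0.1 µM. Each agent had 1 array at 2, 6, 24, 48 and 72 h, and the control, EtOH (ethanol), had 4 arrays without a time label. The labels give no genetic change in these cells, and they do not say whether the arrays came from separate cultures. The p-values thus measure only the spread between these arrays around the fitted means. That spread includes departures of single agents from the time course shared by all agents, and the rest of it may be technical. The F9 cells of the same study were not analysed here.

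Retinoic acid enters the nucleus and binds RARs, which pair with RXRs on DNA at direct repeats of a short hexamer and recruit coactivators when the ligand is bound. Some target genes respond directly, and others follow later as the new transcription factors build up and the embryonal carcinoma cells differentiate. The 6 genes have little in common in their known work. Csn3 encodes κ-casein, which stabilises casein micelles in milk. Adgra2 (also GPR124) is an adhesion G protein-coupled receptor that works with Reck to let Wnt7 ligands signal in brain endothelium. Dusp9 (MKP-4) is a dual-specificity phosphatase that switches off ERK and other MAP kinases. Kcnip3 (DREAM or calsenilin) is a calcium-binding protein that is an accessory subunit of Kv4 potassium channels, a transcriptional repressor and a presenilin partner. Tshz1 is a teashirt zinc finger homeobox transcription factor, and Rasgrp3 is a guanine nucleotide exchange factor that activates Ras and Rap in response to diacylglycerol.

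The promoter table matched 2 of the 6 genes, Rasgrp3 and Kcnip3, and windows of these are shown beside their courses, Rasgrp3 late and lasting, Kcnip3 early and brief. Csn3, Adgra2, Tshz1 and Dusp9 were not matched. The windows come from RefSeq on GRCm38.p6, run 5′ to 3′ on the strand of the gene and span 250 bases before to 50 after an annotated start. Capitals mark a match on either strand to the receptor hexamer AGGTCA, to its variant GGGTCA, to the variant AGTTCA, to the variant GGTTCA, or to the TATA box TATAAA. A match on the opposite strand appears as its reverse complement.
Rasgrp3, chr17:75435655-75435954, plus strand: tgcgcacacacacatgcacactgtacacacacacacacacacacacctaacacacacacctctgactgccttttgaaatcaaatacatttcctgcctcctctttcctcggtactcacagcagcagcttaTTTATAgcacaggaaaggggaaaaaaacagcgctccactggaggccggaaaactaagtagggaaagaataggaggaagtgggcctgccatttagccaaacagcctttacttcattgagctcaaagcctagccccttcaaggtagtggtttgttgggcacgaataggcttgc
Rasgrp3, chr17:75465288-75465587, plus strand: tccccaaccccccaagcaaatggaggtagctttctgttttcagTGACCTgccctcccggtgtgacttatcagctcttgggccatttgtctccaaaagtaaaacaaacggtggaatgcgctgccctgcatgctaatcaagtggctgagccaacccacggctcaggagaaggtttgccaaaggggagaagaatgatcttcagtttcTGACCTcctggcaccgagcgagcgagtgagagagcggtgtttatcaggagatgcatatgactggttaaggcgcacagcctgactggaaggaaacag
Kcnip3, chr2:127522045-127522344, minus strand: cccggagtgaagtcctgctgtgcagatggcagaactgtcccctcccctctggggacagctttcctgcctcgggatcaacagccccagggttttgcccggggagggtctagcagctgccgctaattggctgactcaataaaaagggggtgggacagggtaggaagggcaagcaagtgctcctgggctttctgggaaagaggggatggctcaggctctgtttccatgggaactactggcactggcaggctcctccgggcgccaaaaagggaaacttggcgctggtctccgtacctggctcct
Kcnip3, chr2:127482450-127482749, minus strand: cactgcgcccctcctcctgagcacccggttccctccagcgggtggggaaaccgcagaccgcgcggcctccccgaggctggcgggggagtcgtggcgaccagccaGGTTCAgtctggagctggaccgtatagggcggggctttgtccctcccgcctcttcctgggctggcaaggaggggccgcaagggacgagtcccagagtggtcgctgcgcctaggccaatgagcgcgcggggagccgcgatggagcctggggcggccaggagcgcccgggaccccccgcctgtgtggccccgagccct

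The second Rasgrp3 window held AGGTCA at positions −207 and −46 from the start, both on the opposite strand, and the first held TATAAA at −121, also on the opposite strand, but no hexamer. Of the Kcnip3 windows, the last held GGTTCA at −146, on the strand of the gene, and the other shown held no match. A further Kcnip3 window, chr2:127521343-127521642, also held no match and is not printed. Of 32851 promoters in the table, 16.3% held AGGTCA, 13.7% had GGGTCA, 14.0% had AGTTCA, 10.4% had GGTTCA and 43.7% any of them, while 13.6% held TATAAA. A direct repeat of the hexamers, in any combination of the 4 and on either strand, was in none of the windows of either gene. Such repeats were in 0.222% of all promoters at a spacing of 1 base, 0.268% at 2 and 0.0974% at 5. The matches describe the letters of these windows only, and the arrays do not say which start was used.

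The arrays were close in overall level, with array medians of 6.50 to 6.68, and across genes the difference between 2 EtOH arrays had an SD of 0.094 to 0.143 (log2). Rarb, which encodes RARβ and is a direct retinoid target, stood 3.12 log2 units above the EtOH mean at 2 h of ATRA and 2.56 above it at 2 h of BMS753. Those arrays thus show a retinoid response, but Rarb does not check which agent or time a label names. Against EtOH, limma called 36.9% of all genes late (24, 48 and 72 h) and 0.858% early (2 and 6 h) with ATRA, and 13.5% late and 0.306% early with BMS753. A call is a Benjamini-Hochberg adjusted p under 0.05 over all 19938 genes. Since the members were chosen on these contrasts, nothing is read from those shares for them.

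Csn3, Adgra2 and Dusp9 were early and stayed above EtOH. Csn3 had log2 intensities of 6.59, 8.38, 9.97, 8.18 and 6.92 at 2, 6, 24, 48 and 72 h of ATRA, against 5.09, 4.95, 4.84 and 4.98 in EtOH. With BMS753 it had 6.09, 7.43, 8.80, 8.83 and 8.53. All of these arrays lay above all EtOH arrays. The EtOH values of Csn3 were below the array medians of 6.50 to 6.68 and close to those of Csn2, another casein gene (4.83 to 5.01). Its folds are thus ratios to a low signal. The peak was 32.1-fold above the EtOH mean at 24 h of ATRA, after which the level came down, whereas with BMS753 the peak of 14.6-fold at 48 h was followed by a level close to it at 72 h. At 6 h of BMS753 and at 24 h of BMS753, Csn3 had the second largest excess over EtOH among all genes (rank 2 at both times), and at 24 h of ATRA it ranked 3. Since the members were chosen for such excesses, these ranks follow in part from the choice.

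Adgra2 had log2 intensities of 8.69, 9.87, 8.69, 8.42 and 9.93 over the ATRA course, against 6.94, 7.09, 6.90 and 7.00 in EtOH. Its ATRA course was thus highest at 6 h and at 72 h, the last time measured, with the later level 7.72-fold above the EtOH mean. With BMS753 it had 8.08, 8.99, 8.54, 7.17 and 7.96, with the highest value, 4.04-fold above EtOH, at 6 h. All BMS753 arrays were above the EtOH arrays, but the 48 h array only just.

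Dusp9 had log2 intensities of 10.36, 11.54, 10.57, 10.07 and 10.02 over the ATRA course, against 8.90, 9.08, 9.00 and 9.02 in EtOH. With BMS753 it had 9.90, 10.80, 10.57, 9.15 and 9.56. Both courses peaked at 6 h, 5.83-fold above the EtOH mean with ATRA and 3.48-fold with BMS753, and neither overlapped the EtOH arrays at any time. At 2 h Csn3, Adgra2 and Dusp9 ranked 5, 4 and 12 among all genes with ATRA and 4, 6 and 12 with BMS753 by their excess over EtOH. Because the choice of members used such excesses, high ranks are a description only. Later ranks of Dusp9 were lower, among them 1028 at 72 h of ATRA and 3671 at 48 h of BMS753.

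Kcnip3 was early and brief. It had log2 intensities of 10.79, 11.54, 9.63, 8.23 and 8.83 over the ATRA course, against 9.48, 9.50, 9.57 and 9.52 in EtOH. With BMS753 it had 10.33, 11.10, 10.06, 9.13 and 8.65. The level at 6 h was 4.07-fold above the EtOH mean with ATRA and 3.0-fold with BMS753, while the arrays at 48 and 72 h of both agents lay below all EtOH arrays. No other member had a late array of ATRA or BMS753 below all EtOH arrays. Over the late arrays the change of Kcnip3 was −0.62 ± 0.21 with ATRA and −0.24 ± 0.21 with BMS753 (log2, SE, n = 3 and 4). These means depended on the times included: with 1 late time left out they ran from −0.98 to −0.28 with ATRA and from −0.63 to 0.08 with BMS753, where the sign turned without the 72 h arrays.

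Tshz1 and Rasgrp3 reached their highest levels at 48 or 72 h. Tshz1 had log2 intensities of 6.77, 7.99, 10.47, 11.37 and 10.68 over the ATRA course, against 6.40, 6.45, 6.50 and 6.50 in EtOH. With BMS753 it had 6.46, 6.71, 7.66, 10.68 and 11.17. It first stood at least 1 log2 unit above the EtOH mean at 6 h of ATRA and at 24 h of BMS753. Its highest level was 30.0-fold at 48 h of ATRA and 26.2-fold at 72 h of BMS753, the last time measured. At 2 h of BMS753 its array lay within the EtOH range.

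Rasgrp3 had log2 intensities of 5.19, 5.26, 9.52, 9.98 and 10.18 over the ATRA course, against 5.10, 5.33, 5.14 and 5.14 in EtOH. With BMS753 it had 5.21, 5.04, 6.68, 8.80 and 9.11. At 2 and 6 h it stood within the EtOH range or, at 6 h of BMS753, below it, and from 24 h on every array of both agents was above EtOH. The 72 h level was 32.0-fold above the EtOH mean with ATRA and 15.2-fold with BMS753. The EtOH values of Rasgrp3 were below the array medians of 6.50 to 6.68 and near those of the blood cell marker Ptprc (4.91 to 5.17). These folds are thus ratios to a low signal, and small differences at that level may be noise. The highest EtOH array, replicate 2, stood apart from the other EtOH arrays, which differed by little.

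**Figure D1:**
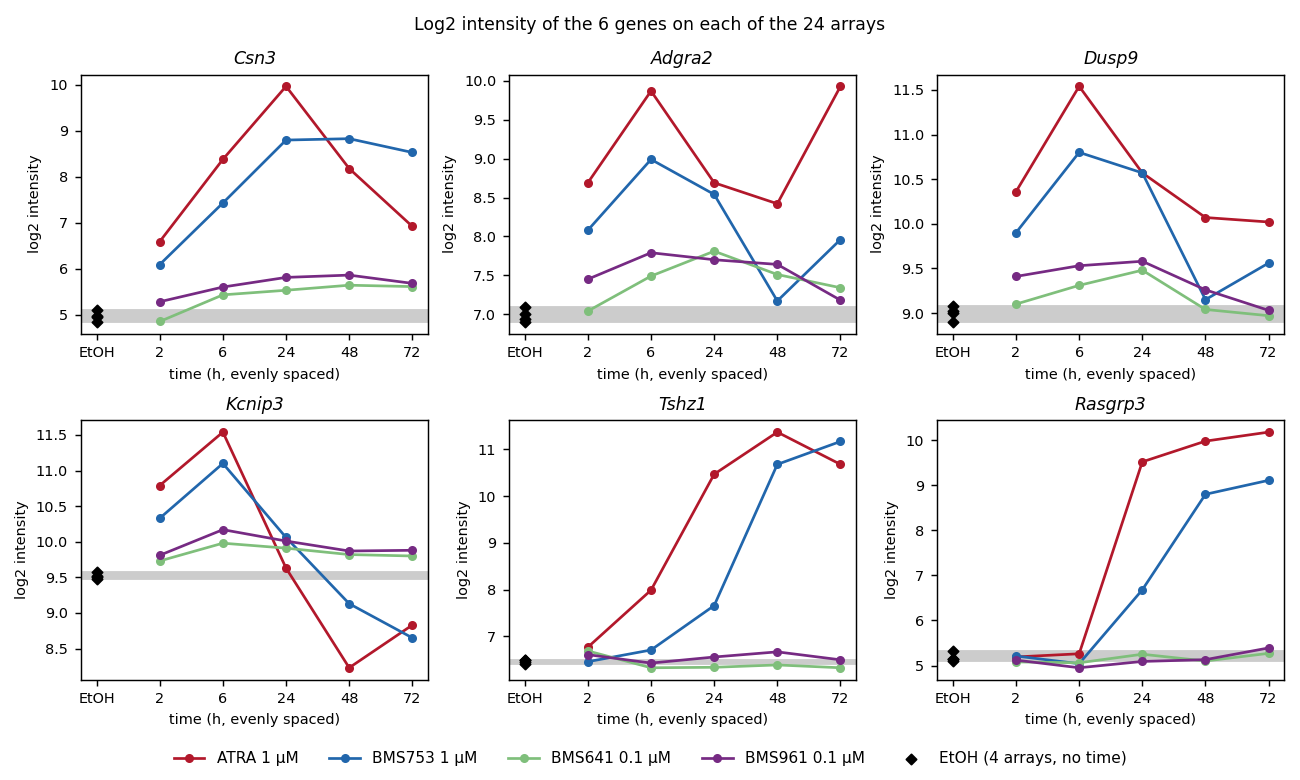
Log2 intensity (vertical axis) of each of the 6 genes against time in hours (horizontal axis, evenly spaced), 1 panel per gene and 1 point per array, with lines joining the arrays of ATRA, BMS753, BMS641 and BMS961. Diamonds are the 4 EtOH arrays and the grey band is their range. Csn3, Adgra2 and Dusp9 lie above the band with ATRA and BMS753 at all times, Kcnip3 drops below it at 48 and 72 h, Tshz1 lies above it at all times with ATRA, and Rasgrp3 is above it from 24 h on with both agents.

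For each gene the 20 arrays of agents were ranked by level. Of 19 gaps between arrays next to each other in that order, 12 were smaller than the EtOH range for Csn3, 16 for Adgra2, 14 for Dusp9, 9 for Kcnip3, 13 for Tshz1 and 14 for Rasgrp3. For Csn3 the top array was ATRA at 24 h, and the gap to BMS753 at 48 h below it was larger than the EtOH range. For Rasgrp3 the ATRA arrays of 72, 48 and 24 h came first, then those of BMS753 at 72, 48 and 24 h, with all other arrays close together below. For Kcnip3 the 6 h arrays of ATRA and BMS753 came first and the 48 h ATRA array last.

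Across the 24 arrays Tshz1 and Rasgrp3 correlated at r = 0.97 (Pearson), Adgra2 and Dusp9 at r = 0.90, and Kcnip3 and Rasgrp3 at r = −0.66. Csn3 lay between the early and the late genes, with r = 0.79 with Tshz1, 0.73 with Rasgrp3, 0.69 with Dusp9, 0.62 with Adgra2 and −0.07 with Kcnip3. The other 7 pairs lay between −0.58 (Tshz1 and Kcnip3) and 0.49 (Dusp9 and Kcnip3). These are descriptions over 24 arrays that share agents, times and EtOH arrays. Among 969 genes whose highest and lowest array differed by at least 2 log2 units, the 3 most like Csn3 in pattern were Baz1a (r = 0.962), Skida1 (0.958) and the receptor tyrosine kinase gene Kit (0.941). The most like Adgra2 were Dusp9 (0.897), Tril (0.895) and Zmym3 (0.895), and the most like Dusp9 were Zmym3 (0.929), Adgra2 (0.897) and Kcnh1 (0.856). For Kcnip3 they were Cidea (0.947), the neuronal nitric oxide synthase gene Nos1 (0.947) and the serotonin receptor gene Htr3a (0.937). For Rasgrp3 they were 5730596B20Rik (0.990), the homeobox gene Hoxa5 (0.989) and Meis1 (0.988), another homeobox gene. For Tshz1 they were Zadh2 (0.990), Flrt3 (0.986) and Meis1 (0.984).

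The 1 µM agents ATRA and BMS753 could be compared directly, time by time. The design sets the pan-receptor ligand beside an RARα agonist. This contrast was not the one the members were chosen on, but its arrays were among those used. A choice for high values with either agent can itself widen the difference between the agents. The calls and p-values of members between ATRA and BMS753, late or early, are therefore a description and not independent evidence of a difference. Rasgrp3 was higher with ATRA late. Its late arrays had log2 intensities of 9.52, 9.98 and 10.18 with ATRA, against 6.68, 8.80 and 9.11 with BMS753, and the groups did not overlap. ATRA minus BMS753 was 1.70 ± 0.32 (SE, n = 3 and 3, limma adjusted p = 0.00682), with single differences of 2.84, 1.17 and 1.07 at 24, 48 and 72 h. Without the 24 h arrays the difference was 1.12, still called (limma adjusted p = 4.67e-06). That setting called 4735 genes, against 2067 with all late arrays.

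Adgra2 was also higher with ATRA late. The late arrays of ATRA, at 8.69, 8.42 and 9.93, overlapped those of BMS753, at 8.54, 7.17 and 7.96, since the 24 h pair was close. The difference was 1.12 ± 0.31 (n = 3 and 3, limma adjusted p = 0.0351). Its call was lost without the 72 h arrays (0.70, adjusted p = 0.116), without the 48 h arrays (1.06, adjusted p = 0.112) or without a time term (1.12, adjusted p = 0.0732). Reck, the partner of Adgra2, was 0.63 ± 0.14 higher with ATRA (adjusted p = 0.015), a call lost without the 48 h arrays.

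The other members were not called between ATRA and BMS753 late. Tshz1 differed by 1.00 (95% interval −0.09 to 2.10, limma adjusted p = 0.206), with single differences of 2.81, 0.69 and −0.49 at 24, 48 and 72 h, so BMS753 was the higher by the last time. Csn3 differed by −0.36 (−1.27 to 0.54, adjusted p = 0.597), with single differences of 1.17, −0.65 and −1.60, so ATRA was above BMS753 at 24 h and below it afterwards. Without the 24 h arrays Csn3 was called lower with ATRA (−1.13, adjusted p = 0.0163) and Dusp9 higher (0.69, adjusted p = 0.028). Calls over all genes also went up in that setting, from 2067 to 4735, so these calls are not particular to the members. With all late arrays Dusp9 differed by 0.46 (0.05 to 0.87, adjusted p = 0.127) and Kcnip3 by −0.38 (−0.86 to 0.10, adjusted p = 0.27). Thus 2 of 6 members were called, where 10.4% of all genes were. The members were chosen for large increases with these agents on these arrays, so nothing is read from their share. Adgra2 and Dusp9 were above BMS753 with ATRA at all 5 times, as were 2.46% of all genes. At 24 h the differences were only 0.16 for Adgra2 and 0.01 for Dusp9, smaller than their EtOH ranges of 0.19 and 0.18.

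Early, at 2 and 6 h, limma called none of the 6 members and 0.0% of all genes between ATRA and BMS753, with adjusted p from 0.403 to 0.986. The unadjusted p was under 0.05 for 1 member, Dusp9, and for 1923 genes. The early differences were 0.75 for Adgra2 (−0.07 to 1.56), 0.73 for Csn3 (−0.38 to 1.83), 0.60 for Dusp9 (0.10 to 1.11) and 0.45 for Kcnip3 (−0.13 to 1.03). Single differences at 2 and 6 h were 0.62 and 0.87 for Adgra2, 0.50 and 0.95 for Csn3, and 0.46 and 0.74 for Dusp9. They were 0.46 and 0.44 for Kcnip3, 0.31 and 1.27 for Tshz1, and −0.02 and 0.22 for Rasgrp3. For Tshz1 the early difference was 0.79 (−0.55 to 2.13), and for Rasgrp3, which had not yet left the EtOH level, 0.10 (−0.74 to 0.94).

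**Figure D2:**
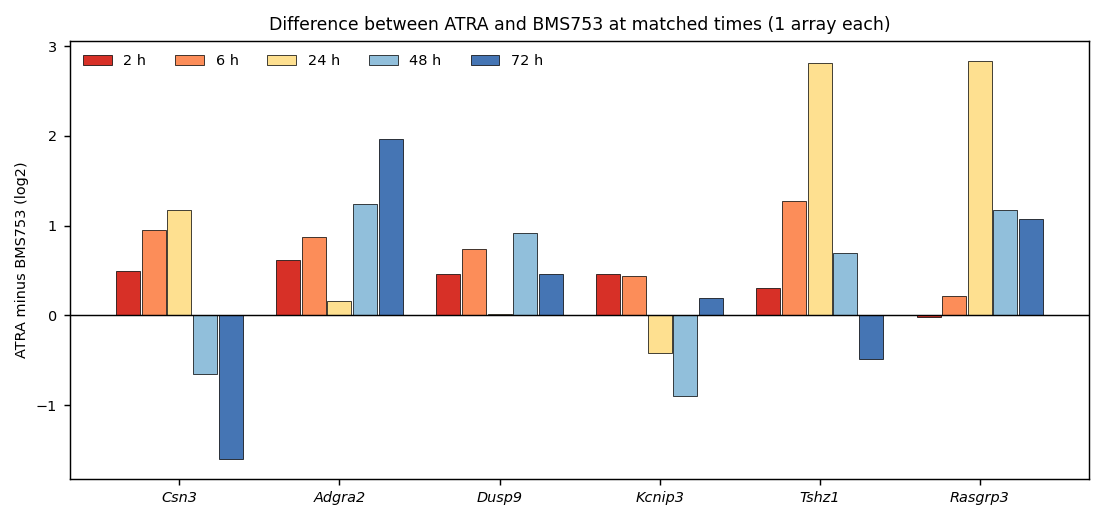
Difference in log2 intensity between ATRA and BMS753, both at 1 µM (vertical axis), for each gene (horizontal axis) at 2, 6, 24, 48 and 72 h (bars from left to right, 1 array of each agent per bar, so that bars have no error). Adgra2 and Dusp9 are above 0 at all 5 times, but by only 0.16 and 0.01 at 24 h. Csn3 turns from 1.17 at 24 h to −1.60 at 72 h, and Tshz1 and Rasgrp3 differ most at 24 h.

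The RARβ agonist BMS641 and the RARγ agonist BMS961 were given at 0.1 µM, so their values stand beside those of the 1 µM agents without a comparison. The early genes stood slightly above EtOH with both, and the late genes stayed near the EtOH level. Csn3 had log2 intensities of 5.28, 5.60, 5.81, 5.86 and 5.68 over the BMS961 course and 4.85, 5.43, 5.53, 5.64 and 5.61 over the BMS641 course, against 4.84 to 5.09 in EtOH. All BMS961 arrays were above EtOH, while the 2 h BMS641 array was within its range. Adgra2 had 7.45, 7.79, 7.70, 7.64 and 7.18 with BMS961 and 7.04, 7.49, 7.81, 7.51 and 7.34 with BMS641, against 6.90 to 7.09 in EtOH. Again the 2 h BMS641 array alone overlapped EtOH.

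Kcnip3 had 9.81, 10.17, 10.01, 9.87 and 9.88 with BMS961 and 9.73, 9.98, 9.91, 9.82 and 9.80 with BMS641, against 9.48 to 9.57 in EtOH. All of these arrays were above all EtOH arrays. Dusp9 had 9.41, 9.53, 9.58, 9.26 and 9.03 with BMS961 and 9.10, 9.31, 9.48, 9.04 and 8.97 with BMS641, against 8.90 to 9.08 in EtOH. It returned to the EtOH range at 72 h of both agonists, and at 48 h of BMS641. Tshz1 ranged over 6.43 to 6.67 with BMS961 and 6.33 to 6.69 with BMS641, against 6.40 to 6.50 in EtOH. With BMS641, 4 of its 5 arrays lay below all EtOH arrays and 1 above, while with BMS961 3 of 5 lay above and 0 below. Rasgrp3 ranged over 4.95 to 5.39 with BMS961 and 5.06 to 5.27 with BMS641, against 5.10 to 5.33 in EtOH.

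None of the 6 members was called against EtOH with BMS961 or BMS641, late or early, where limma called 0.00502% of all genes with BMS961 late, namely Rarb (1.55 ± 0.13, adjusted p = 0.00011), and 0.0% in the other 3 comparisons. The largest late changes with BMS961 were 0.82 for Csn3 (95% interval −0.03 to 1.66), 0.53 for Adgra2 (−0.10 to 1.15) and 0.40 for Kcnip3 (−0.04 to 0.85). With BMS641 late they were 0.63 for Csn3 (−0.22 to 1.48), 0.57 for Adgra2 (−0.06 to 1.19) and 0.33 for Kcnip3 (−0.12 to 0.77). For Rasgrp3 the late change was 0.03 (−0.61 to 0.67) with BMS961 and 0.03 (−0.61 to 0.67) with BMS641. The unadjusted p was under 0.05 for 1 member in these 4 comparisons, Dusp9 early with BMS961 (0.47, 0.04 to 0.91, adjusted p = 1). Across all genes it was under 0.05 for 769 with BMS961 late, 625 with BMS641 late, 582 with BMS961 early and 468 with BMS641 early.

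The residual of the fit holds the agent-specific courses of ATRA and BMS753 within a phase. When the spread came from EtOH arrays only, limma called Csn3, Adgra2, Dusp9 and Kcnip3 with BMS961 late and early, Csn3, Adgra2 and Kcnip3 with BMS641 late, and Kcnip3 with BMS641 early. Under that setting the calls over all genes were 2.29% with BMS961 late, 0.351% with BMS961 early, 0.627% with BMS641 late and 0.15% with BMS641 early. Between ATRA and BMS753 that setting called 6 of 6 members late, where 35.2% of all genes were called, and 5 of 6 early, where 0.953% were. All 5 BMS961 arrays were above all 4 EtOH arrays for 3 of 6 members (Csn3, Adgra2 and Kcnip3), against 2.03% of all genes, and all 5 BMS641 arrays for 1 of 6 (Kcnip3), against 1.74%. The EtOH, ATRA and BMS753 arrays in these counts were also used in choosing the members, so nothing is read from those shares for them.

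BMS961 and BMS641, at the same dose, were not called apart for any member, and limma called 0.0% of all genes late and 0.0% early. Across all genes the unadjusted p was under 0.05 for 358 late and 292 early. The late difference, BMS961 minus BMS641, was 0.22 for Tshz1 (−0.87 to 1.31), 0.19 for Csn3 (−0.72 to 1.09), 0.13 for Dusp9 (−0.28 to 0.54), 0.08 for Kcnip3 (−0.40 to 0.55), 0.00 for Rasgrp3 (−0.68 to 0.68) and −0.04 for Adgra2 (−0.71 to 0.62). Csn3, Dusp9 and Kcnip3 were higher with BMS961 at all 5 times, by 0.06 to 0.43, as were 4.39% of all genes. The intervals are wider than these differences.

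**Figure D3:**
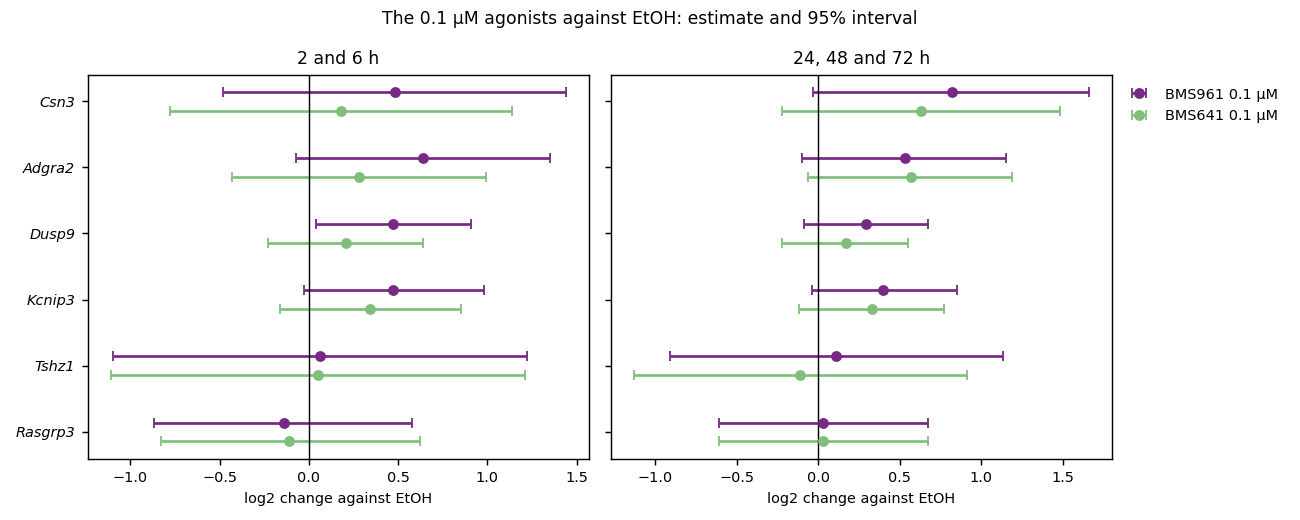
Log2 change against EtOH (horizontal axis) of each gene with BMS961 and BMS641 at 0.1 µM, early (2 and 6 h, left) and late (24, 48 and 72 h, right). Points are estimates of the limma fit and bars are 95% intervals. All intervals cover 0 except that of Dusp9 early with BMS961 (0.04 to 0.91).

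The relatives and partners of the members were set beside them, from lists that leave the members out, with ATRA late and early. None of these genes was called early with ATRA or BMS753, apart from retinoid target genes. Early, 0.858% of all genes were called with ATRA and 0.306% with BMS753. For the casein cluster and milk proteins, 0 of 6 genes were called late with ATRA (median log2 change 0.02, against 0.03 over all genes). Csn2, Csn1s1, Csn1s2a, Csn1s2b, Odam and Wap were not called with BMS753 either. The mammary secretory epithelium markers, 6 measured, had a mean of 5.09 to 5.18 in late ATRA arrays and 5.05 to 5.15 in EtOH arrays, and none was called.

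Of 27 adhesion G protein-coupled receptors and partners of Adgra2, 11 rose and 1 fell late with ATRA (44.4% called, against 36.9% of all genes, and median 0.13, against 0.03 over all genes). Adgrg1 rose by 1.35 ± 0.37, Adgrg6 by 1.11 ± 0.32 and Adgrl3 by 1.1 ± 0.31 on the log2 scale. Their calls were each lost without the 48 h arrays, and those of Adgrg6 and Adgrl3 also without the 72 h arrays. Reck rose by 0.87 ± 0.13 (limma adjusted p = 0.000192), and the ligand gene Wnt7a fell by 0.30 ± 0.09 (adjusted p = 0.0182), a call lost without EtOH replicate 3. With BMS753 late, 5 rose and 1 fell (22.2%, against 13.5% of all genes), but without a time term 2 rose. Without the 48 h arrays 3 of the 27 rose with ATRA. Endothelial markers, where Adgra2 is known to act, rose for 3 (Cdh5, Emcn and Kdr) and fell for 1 (Tek) of 8 (4 of 8 called, against 36.9% of all genes), with a list mean of 5.84 to 6.08 in late ATRA arrays and 5.92 to 5.96 in EtOH arrays. Their part in the level of Adgra2 was not tested.

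Both teashirt relatives of Tshz1 rose late with ATRA. Tshz3 rose by 2.06 ± 0.18 (limma adjusted p = 2.48e-06) and Tshz2 by 1.16 ± 0.26 (adjusted p = 0.0024). With BMS753 late Tshz3 rose by 1.74 ± 0.18, and Tshz2 stood at 0.38 ± 0.26 (adjusted p = 0.396). Of 17 other Ras and Rap exchange factors, 2 rose and 4 fell late with ATRA (median −0.01), a share of 35.3% that is near the 36.9% of all genes. With BMS753 late 2 rose and 3 fell (29.4%, against 13.5% of all genes), but without a time term 1 rose and 1 fell. The BMS753 calls of Sos1, Rasgrp2 and Rasgrp4 were lost in 5, 4 and 7 alternatives. With ATRA late Sos2 rose by 0.70 ± 0.08 and Sos1 by 0.46 ± 0.09, while Rasgrp2 fell by 1.81 ± 0.30, Rasgrp4 fell by 0.72 ± 0.11 and Rapgef2 fell by 0.42 ± 0.07. Rasgrp2 and Rasgrp4 belong to the same family of exchange factors as Rasgrp3. Blood cell markers, among them those of B cells, where Rasgrp3 is well known, rose for 0 and fell for 1 (Spi1) of 6, with a list mean of 5.13 to 5.19 in late ATRA arrays and 5.12 to 5.23 in EtOH arrays.

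Of 9 other MAP kinase phosphatases, 2 rose late with ATRA, Dusp5 by 1.16 ± 0.17 and Dusp4 by 0.83 ± 0.11, and 1 fell, Dusp7 (−0.55 ± 0.07). This share of 33.3% is also near that of all genes. Dusp5 and Dusp4 also rose with BMS753 late, by 1.31 ± 0.17 and 1.24 ± 0.11. Of 14 ERK feedback genes, whose transcription follows ERK activity, 9 fell and 1 rose late with ATRA (71.4% called, against 36.9% of all genes, and median −0.86, against 0.03 over all genes). The phosphatases above, among them Dusp4 and Dusp5, which rose, were not part of this list. Spry4 fell by 2.88 ± 0.36, Etv5 fell by 2.04 ± 0.45 and Ier3 fell by 1.64 ± 0.35, and Fos rose by 0.55 ± 0.15, a call lost without the 72 h arrays. With a filter on dim genes, 0 genes of the ERK feedback list were called higher. With BMS753 late 4 of the 14 fell and 0 rose (28.6%, against 13.5% of all genes). None of the 14 was called early with either agent, where 0.858% of all genes were with ATRA and 0.306% with BMS753. A link between these genes and the level of Dusp9 was not tested.

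Of 10 Kv4 channel and Kcnip family genes, 4 fell and 1 rose late with ATRA (5 of 10 called, against 36.9% of all genes, and median −0.06, against 0.03 over all genes). Kcnip2 fell by 1.32 ± 0.39, the channel subunit gene Dpp6 fell by 0.85 ± 0.21, the presenilin gene Psen2 fell by 0.46 ± 0.13 and Kcnd3 rose by 0.40 ± 0.09. With a filter on dim genes, 0 genes of this list were called higher. The calls of Kcnip2 and Psen2 were lost when the arrays of 48 h or of 72 h were left out. With BMS753 late 1 fell and 0 rose (10.0%, against 13.5% of all genes). Of 6 retinoid target genes, 6 rose late with ATRA and 5 with BMS753, and 3 and 2 of them early. Cyp26a1, which encodes a retinoic acid hydroxylase, rose by 3.19 ± 0.52 late with ATRA.

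**Figure D4:**
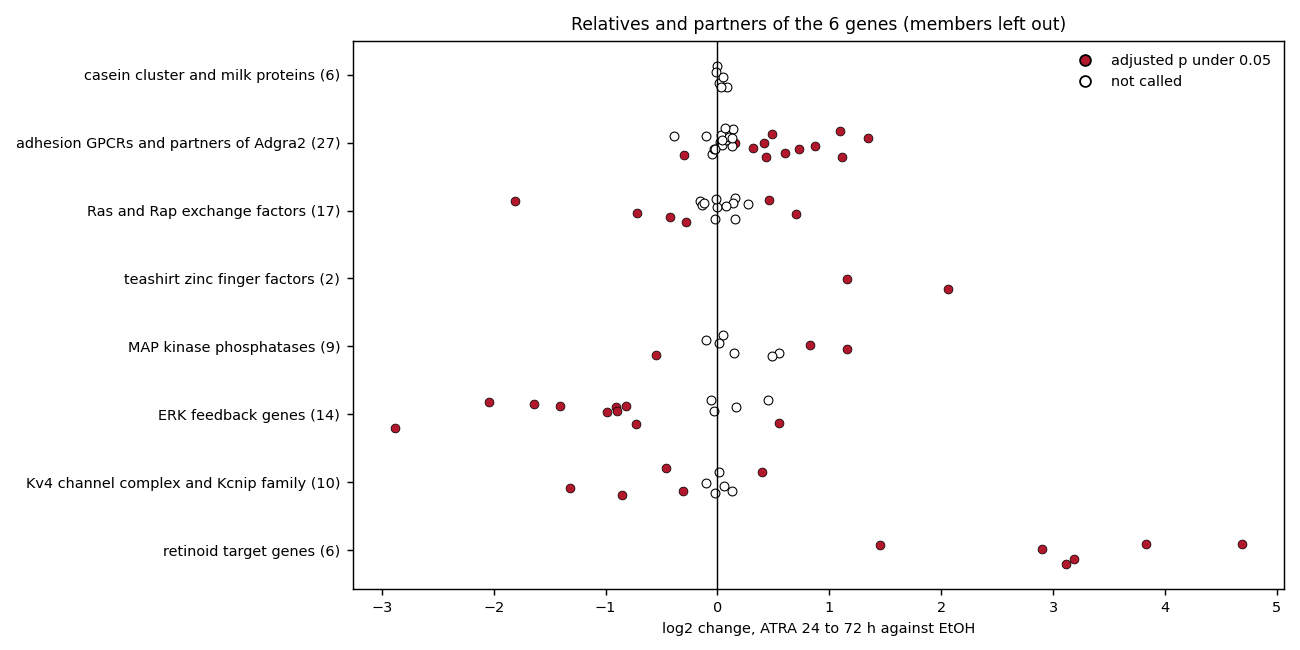
Log2 change late with ATRA against EtOH (horizontal axis) for the relatives and partners of the 6 genes, 1 row per list with its number of genes in brackets and the members left out. Filled points have an adjusted p under 0.05 and open points do not. Milk protein genes lie near 0, both teashirt relatives are to the right, and 9 of 14 ERK feedback genes are called to the left.

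Markers of cell states were set beside the late levels of Tshz1 and Rasgrp3. Of 9 genes of the embryonal carcinoma state 7 fell late with ATRA (77.8%, against 36.9% of all genes), among them Pou5f1 (−4.07 ± 0.81) and Nanog (−2.15 ± 0.51), with a list mean of 6.96 to 10.02 in late ATRA arrays and 10.59 to 10.68 in EtOH arrays. Of 10 neural genes 4 rose, a share of 40.0% that is near that of all genes. The list median was 0.20, with Pax6 at 4.01 ± 0.36 and Stmn2, not called, at −0.31 ± 0.17, and the list mean was 7.66 to 8.99 in late ATRA arrays and 7.46 to 7.48 in EtOH arrays. Among 8 markers of fibroblasts and smooth muscle 6 rose (75.0%), with Tagln at 1.82 ± 0.39, and the list mean was 6.74 to 8.48 in late ATRA arrays and 6.58 to 6.68 in EtOH arrays. With BMS753 late, where Tshz1 and Rasgrp3 stood 3.37 and 3.02 log2 units above EtOH, 2 of 9 carcinoma-state genes fell (22.2%), 2 of 10 neural genes rose (20.0%) and 0 of 8 fibroblast and smooth muscle genes were called, against 13.5% of all genes. The list means in late BMS753 arrays were 8.5 to 10.68, 7.55 to 8.29 and 6.7 to 7.78. The part of these markers in the levels of the members was not tested, and in these bulk arrays a changed number of cells of a type and a changed RNA level per cell cannot be told apart.

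The genes next to the members on the chromosome were taken as the 5 measured genes on each side in the RefSeq order of GRCm38.p6, a rule chosen after values were seen. Of these 60 neighbours 22 were called late with ATRA, 12 higher and 10 lower, a share close to the 36.9% of all genes, and none early. The neighbours of Tshz1 included Zadh2 (2.13 ± 0.26, limma adjusted p = 3.44e-05) and Zfp516 (1.75 ± 0.17, adjusted p = 6.32e-06), the nearest measured genes on either side. Zadh2 was also the gene most like Tshz1 in pattern, and whether its probe set reads transcripts of Tshz1 was not tested. Next to Rasgrp3, Crim1 rose by 1.67 ± 0.29 and Ltbp1 by 1.51 ± 0.39, and the call of Ltbp1 was lost when the arrays of 48 h or of 72 h were left out. Next to Adgra2, Zfp703 rose by 1.06 ± 0.19. The 10 neighbours of Csn3, which include other casein genes, ranged from −0.09 to 0.17, and 1 of them, Cabs1, was called (0.17 ± 0.06), a call lost in 4 alternatives (quantile normalization, and leaving out EtOH replicate 1, EtOH replicate 4 or the 72 h arrays).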

How the data were processed

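The authors deposited log2 intensities for each probe set of Affymetrix Mouse Gene arrays, and Affymetrix Expression Console 1.1 is named in the submitters' processing notes. Background correction, summarization and normalization are not given in the sources used here, and that the scale is log2 was judged from the range of 2.86 to 14.3. The table had 35556 probe sets, 21789 of them with a single symbol, 1621 with several and 12146 without a name here. The brightest probe set on average was kept for 999 genes with over 1, which left 19938 genes, with no filter on dim genes. The number of arrays limits the precision.

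All 24 arrays entered 1 fit with limma 3.58.1 (R 4.3.3), using lmFit, then eBayes with an intensity trend. It had an EtOH mean and a mean of each agent early (2 and 6 h, n = 2) and late (24, 48 and 72 h, n = 3) and sum-to-zero time terms shared by the agents. Arrays of a phase serve as repeats, with 12 residual and 3.10 prior degrees of freedom. Tests were two-sided, with Benjamini-Hochberg adjustment over all genes of a comparison, and were tested on simulated data. The 8 comparisons tested for the members were BMS961 and BMS641 against EtOH, ATRA against BMS753 and BMS961 against BMS641, each late and early. Members, gene lists and the naming rule (all members, up to 3 called rises and falls of each list, all of a short list, the 3 most alike genes) were chosen with earlier results of these data known. Reck, Pou5f1 and the neighbours were named after their values were seen. Fdcsp, Lalba, Rapgef4, Ralgps1 and some other listed genes were not analysed here. Alternatives were a filter on dim genes, quantile normalization, the mean of probe sets, robust moderation, a fit lacking time terms, spread from EtOH arrays only, and leaving out each EtOH array or time.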

Additional observations from a re-analysis of the deposited data

Results flagged for a closer look

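Rasgrp3 in the EtOH arrays was picked out because 1 array stood far from the others: replicate 2 had a log2 intensity of 5.33, against 5.10, 5.14 and 5.14, so that its gap to the nearest array was 0.835 of the whole range. Chance picks out about 1 in 20 such groups, and 6 genes were examined. The gap is small beside the late values with ATRA, which are 9.52 and above.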

How the results depend on the processing

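No paired analysis was possible by replicate number because the groups compared share fewer than 2 such numbers. Arrays of different agents were matched by time instead, through the shared time terms. Of the tested values of single members, 561 kept their direction and side of the threshold, 23 gained a call, 3 lost one and 13 changed sign, all 13 of them uncalled before and after. Between ATRA and BMS753 late, 2 members were called, against 1 without a time term, 6 with spread from the EtOH arrays only, 4 without the 24 h arrays and 1 without the 48 h or the 72 h arrays. The genes called there were 2067, against 7024 with the EtOH spread alone and 4735, 317 and 1022 without the 24, 48 and 72 h arrays. With the EtOH spread alone, the members called were 4 with BMS961 late, 3 with BMS641 late, 4 with BMS961 early, 1 with BMS641 early and 5 between ATRA and BMS753 early, against 0 in each, and the genes called were 456, 125, 70, 30 and 190. That setting assumes that the lone array of an agent and time varies as the EtOH arrays do. The changes of sign were for Rasgrp3, to −0.01 with quantile normalization and 0.00 without the 72 h arrays (BMS641 late), −0.07 without the 72 h arrays (BMS961 late), −0.01 and −0.06 without the 48 h and the 72 h arrays (BMS961 against BMS641 late), −0.02 (ATRA against BMS753 early) and 0.04 (BMS961 against BMS641 early) without the 6 h arrays. For Csn3 they were 0.26 without the 72 h arrays (ATRA against BMS753 late) and −0.11 without the 6 h arrays (BMS641 early). For Tshz1 they were −0.13 (BMS641 early) and −0.03 (BMS961 early) without the 2 h arrays and −0.08 without the 6 h arrays (BMS961 against BMS641 early), and for Adgra2 0.01 without the 72 h arrays (BMS961 against BMS641 late). The cause of these changes was not tested. Among relatives late with ATRA, 5 MAP kinase phosphatases rose without the 24 h arrays, against 2, and 2 Kv4 channel and Kcnip genes fell without the 48 h arrays, against 4. The alternatives for genes that are not members were added after seeing the data.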
